A study of Mus musculus with 12 samples.

Results

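The EGR transcription factors *Egr1*, *Egr2* and *Egr3*, the NAB corepressors *Nab1* and *Nab2*, the immediate early response genes *Ier2*, *Ier3* and *Ier5*, and 2 further immediate early transcription regulators, *Maff* and *Csrnp1*, were followed in bone marrow-derived macrophages (BMDMs). They were listed by name, as genes known to be driven by ERK or cAMP signaling, at a time when results of these data were already known. They are 10 of the 53379 genes in the count table, and all 10 had enough reads to be tested. BMDMs were grown for 1 week from marrow of 4 male C57Bl/6J mice in medium containing L929 cell-conditioned medium. Each mouse gave untreated cells and cells that received 1 μM fenoterol, an agonist of the beta2-adrenergic receptor (B2AR), for 1 h or 4 h, so that each of 3 groups had 4 libraries. Fenoterol was added without a change of medium. The labels name neither a vehicle nor a time for the untreated cells, and the untreated libraries serve both comparisons. The labels name no genetic change in any group.

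EGR proteins are zinc finger transcription factors that bind a GC-rich site, and their genes respond within minutes to growth factors and other signals that activate ERK. NAB proteins bind EGR factors and repress transcription, and NAB genes can themselves be EGR targets, so the families form a feedback loop. In the macrophage lineage EGR factors are known for roles in differentiation downstream of colony stimulating factor 1, which L929-conditioned medium supplies. B2AR raises cAMP, which activates protein kinase A and the transcription factor CREB. CREB binds the cAMP response element (CRE), whereas serum response factor (SRF) binds the CArG box found in many immediate early genes.

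At 1 h of fenoterol, the 10 genes differed in direction. *Ier2*, *Ier3*, *Maff*, *Csrnp1*, *Nab2* and *Nab1* rose, by 1.29-fold to 4.91-fold, whereas *Egr2* fell 11.3-fold and *Ier5* fell 1.40-fold. *Egr1* and *Egr3* did not pass the test at 1 h. By 4 h, all 3 EGR genes, *Ier5* and *Maff* were lower than in untreated BMDMs, and *Nab1*, *Nab2*, *Ier2* and *Ier3* were still higher. Between 1 h and 4 h, 7 of 10 genes fell and the other 3, *Egr2*, *Nab1* and *Ier5*, did not pass the test. In numbers, 6 genes were higher at 1 h where 10.0% of all 12386 genes tested were called higher, and 2 were lower where 10.1% were called lower. Against untreated BMDMs at 4 h, 4 genes were higher (19.7% of all genes tested) and 5 were lower (20.4%). From 1 h to 4 h, 0 were called higher (18.7%) and 7 were called lower (19.8%). The median log2 fold change of the 10 genes was 0.54 at 1 h, -0.16 at 4 h and -0.98 from 1 h to 4 h, beside medians over all genes tested of -0.0049, 0.0042 and 0.0074. The quasi-likelihood test of edgeR was used, with p-values adjusted over all genes by the Benjamini-Hochberg method, and a gene was called where the adjusted p was under 0.05. Values below are normalized counts, which are read counts scaled to the mean effective library size. Scaling by library size alone changed the balance of calls over all genes, from 49.8% higher among 2493 calls to 32.5% of 2918 at 1 h, and from 48.6% of 4773 to 65.7% of 5333 between the time points. It changed no call among the 10 genes.

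**Figure D1:**
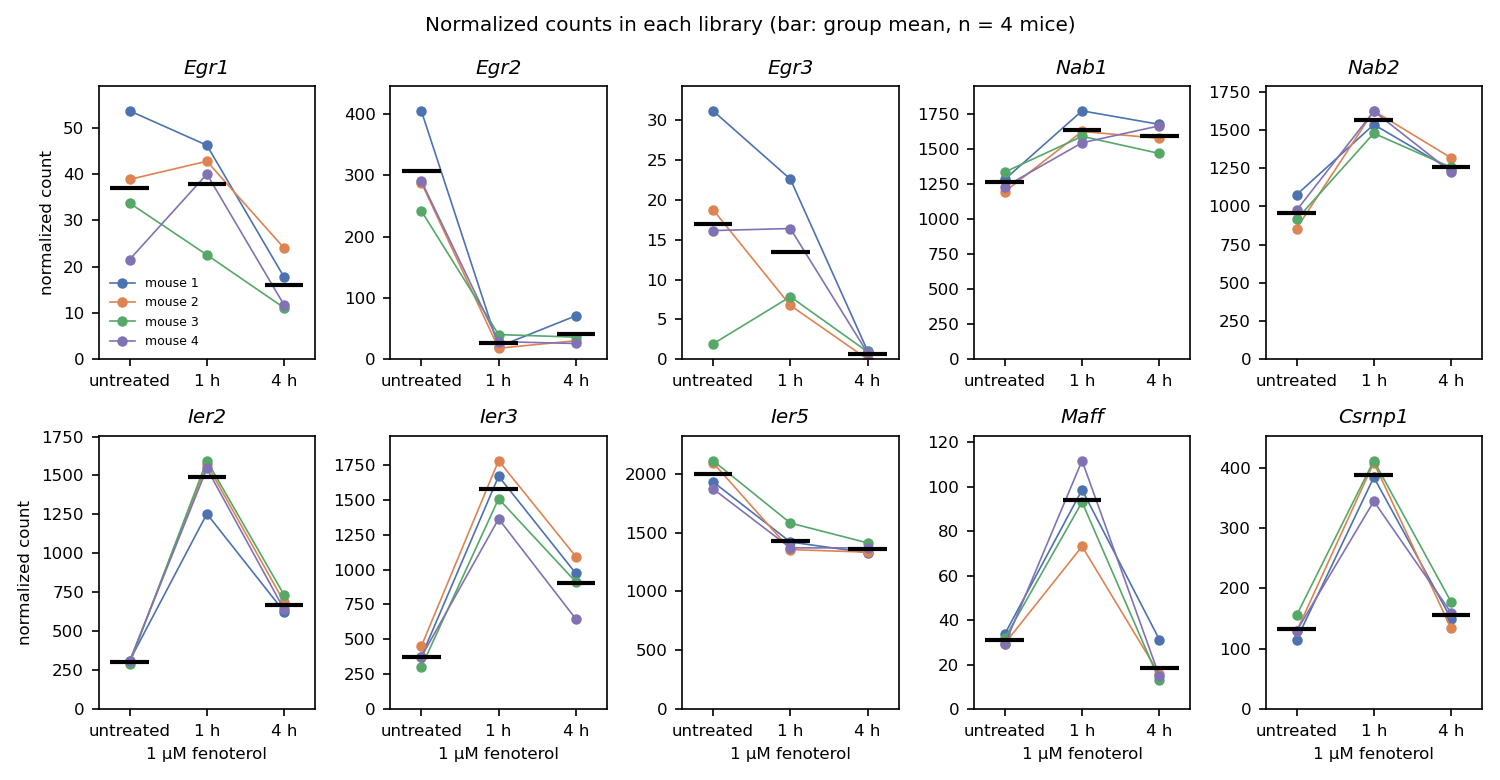
Normalized counts (vertical axes, linear from 0) of the 10 genes in untreated BMDMs and after 1 h and 4 h of 1 μM fenoterol. Points are libraries, lines join libraries of 1 mouse and black bars are means of 4 mice. *Egr2* drops from 242 to 405 in untreated BMDMs to 18.0 to 40.2 at 1 h in every mouse, *Ier2*, *Ier3*, *Maff* and *Csrnp1* peak at 1 h, and *Egr3* lies between 0 and 1.04 at 4 h.

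The libraries held 14580533 to 24153284 counts. Defining macrophage genes were abundant. *Adgre1*, which encodes F4/80, had mean normalized counts of 90035, 92381 and 77621 in untreated, 1 h and 4 h BMDMs, and *Csf1r*, the receptor for colony stimulating factor 1, had 120298, 112932 and 100309. The sum of 7 macrophage markers was 735257 to 773703 in untreated libraries and 661050 to 781865 at 1 h. At 4 h it was 626443 to 716831, below all untreated libraries. Of these markers, *Mertk*, a receptor for apoptotic cells, fell by 0.20 on the log2 scale at 1 h (adjusted p = 0.0153) and had a log2 fold change of -1.51 at 4 h (adjusted p = 5.13e-11). At 4 h *Adgre1*, *Csf1r* and *Cd68* fell, with log2 fold changes from -0.26 to -0.21, and *Itgam* and *Fcgr1* rose by 0.42 and 0.72. Marker lists of other cells were low. They summed to 434 to 885 for neutrophils, 127 to 232 for B cells, 458 to 1432 for fibroblasts, 7.41 to 39.8 for dendritic cells, 3.90 to 12.3 for T cells, 0 to 3.92 for mast cells or basophils, and 0 for erythroid cells. The ranges of these lists overlapped between the 3 groups, *Cd8a*, *Lum* and *Tpsb2* had no count, and none of the 11 markers of other cells that were tested passed at either time. The part of the macrophage marker changes in the results below was not tested.

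*Egr2* (ENSMUSG00000037868, GRCm38 chr10:67535475-67542188, plus strand) was the most abundant EGR gene per kilobase of exon in untreated BMDMs. It encodes a zinc finger factor of the immediate early class. Its normalized counts were 405, 288, 242 and 291 in untreated BMDMs of mice 1 to 4. After 1 h of fenoterol they were 20.6, 18.0, 40.2 and 28.7, and after 4 h they were 70.9, 30.3, 36.1 and 25.7. Every treated library lay far below every untreated one. The log2 fold change was -3.50 (SE 0.31, adjusted p = 8.00e-07) at 1 h and -2.93 (SE 0.29, adjusted p = 1.38e-06) at 4 h, by edgeR. Within a mouse, 5.07% to 16.6% of the untreated level was left at 1 h and 8.85% to 17.5% at 4 h. The 2 treated groups overlapped, since *Egr2* was higher at 4 h than at 1 h in mice 1 and 2 and lower in mice 3 and 4. The difference between them was 0.57 on the log2 scale, with a 95% confidence interval from -0.16 to 1.29 (adjusted p = 0.210). In bulk RNA, fewer cells that express a gene and less of its RNA per cell cannot be told apart.

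The sequence before the *Egr2* start is shown because it holds motifs for SRF and for CREB beside a transcript that fell under a cAMP-raising agonist. RefSeq on GRCm38.p6 gives 5 starts for *Egr2*, and the 250 bases before the start at position 67537869 (chr10:67537619-67537868, plus strand) touch no GENCODE exon. Capitals mark matches to the CArG box, 72 bases before the start, and to the short CRE motif TGACG, 111 bases before the start on the plus strand and 55 bases before it on the minus strand, where it reads as CGTCA.
Egr2 promoter: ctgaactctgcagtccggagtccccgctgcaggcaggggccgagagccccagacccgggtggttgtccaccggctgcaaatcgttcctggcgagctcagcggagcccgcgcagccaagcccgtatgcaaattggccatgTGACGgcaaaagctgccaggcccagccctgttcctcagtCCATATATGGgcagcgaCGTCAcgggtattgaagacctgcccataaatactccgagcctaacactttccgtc
Of the other *Egr2* windows, that before position 67535499 held neither motif, and that before position 67537566 held a CArG box but no TGACG. The rest overlap the window shown and hold the same matches. Over all 32817 RefSeq windows of this length, 1.47% held a CArG box and 17.7% held TGACG on either strand.

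Motifs were searched in the 250 bases before each RefSeq start on both strands, and a match is only a description of the letters. Of the 10 genes, 7 were matched to at least 1 window, and *Egr1*, *Egr3* and *Ier2* were not. Windows on chromosome 18, where *Egr1* lies, were left out of the search for these genes. The full CRE TGACGTCA, which contains TGACG on both strands, was found for *Maff* only among the 7 and in 1.55% of all windows. TGACG was found for *Egr2*, *Nab1*, *Maff* and *Csrnp1*. The EGR motif GCGNGGGCG was found for *Nab1* and *Maff* and in 4.70% of all windows. The CArG box was found for *Egr2* only. *Nab2*, *Ier3* and *Ier5* held none of these letters in their windows. The 7 genes had 16 windows, and a gene was counted if any of its windows matched. The shares of all windows count single windows, so the 2 measures are not alike.

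*Egr1* (ENSMUSG00000038418, chr18:34859823-34864984, plus strand), the best known factor of the family and a common readout of ERK activity, was low and fell at 4 h. It had normalized counts of 53.7, 38.9, 33.8 and 21.5 in untreated BMDMs. At 1 h the values were 46.3, 42.8, 22.6 and 40.0, higher than untreated in mice 2 and 4 and lower in mice 1 and 3. The log2 difference at 1 h was 0.02 (SE 0.31, 95% confidence interval -0.65 to 0.70, adjusted p = 0.978, edgeR). At 4 h the values were 17.7, 24.0, 11.1 and 11.7. They were below the untreated value in all 4 mice, although the highest 4 h library exceeded the lowest untreated one. The fall at 4 h was -1.22 on the log2 scale against untreated (SE 0.34, adjusted p = 0.010) and -1.24 against 1 h (SE 0.34, adjusted p = 0.00959). These values rest on 12 to 62 reads per library.

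*Egr3* (ENSMUSG00000033730, chr14:70077203-70082614, plus strand), a close relative that is often induced together with the other EGR genes, was the scarcest of the 10 per kilobase of exon. Untreated libraries held 36, 14, 2 and 15 reads, 1 h libraries held 22, 6, 8 and 16, and 4 h libraries held 1, 0, 1 and 1. Untreated and 1 h libraries overlapped, and each 4 h library lay below all of them. The change at 1 h was -0.35 on the log2 scale (SE 0.55, 95% confidence interval -1.54 to 0.84, adjusted p = 0.748). At 4 h it fell by 4.39 against untreated (SE 0.89, adjusted p = 0.00111) and by 4.04 against 1 h (SE 0.92, adjusted p = 0.00299), both by edgeR. The size depended on the tool at these low counts, and was -3.04 and -2.99 under limma-trend and -3.53 and -3.54 under limma-voom. Summed over libraries and corrected for library size, the 3 reads at 4 h were 4.05% of the 67 untreated reads, with an exact 95% interval for counting error from 0.814% to 12.3%. *Egr4*, the remaining member of the family, had 0 reads in all 12 libraries.

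The make-up of the EGR transcripts changed with time. Per kilobase of exon, which allows genes of different length to be compared, the 3 EGR genes together had 79.2 to 138 normalized counts in untreated libraries, 16.4 to 21.5 at 1 h and 10.4 to 25.1 at 4 h. *Egr2* made up 86.2% to 91.0% of that sum in untreated libraries, 28.1% to 63.5% at 1 h and 62.5% to 83.3% at 4 h. *Egr1* made up 5.11% to 9.50%, 27.0% to 58.3% and 15.8% to 37.5%. The level of *Egr1* per kilobase was 4.80 to 12.0 in untreated libraries and 5.03 to 10.3 at 1 h, so its larger share at 1 h came with overlapping levels.

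**Figure D2:**
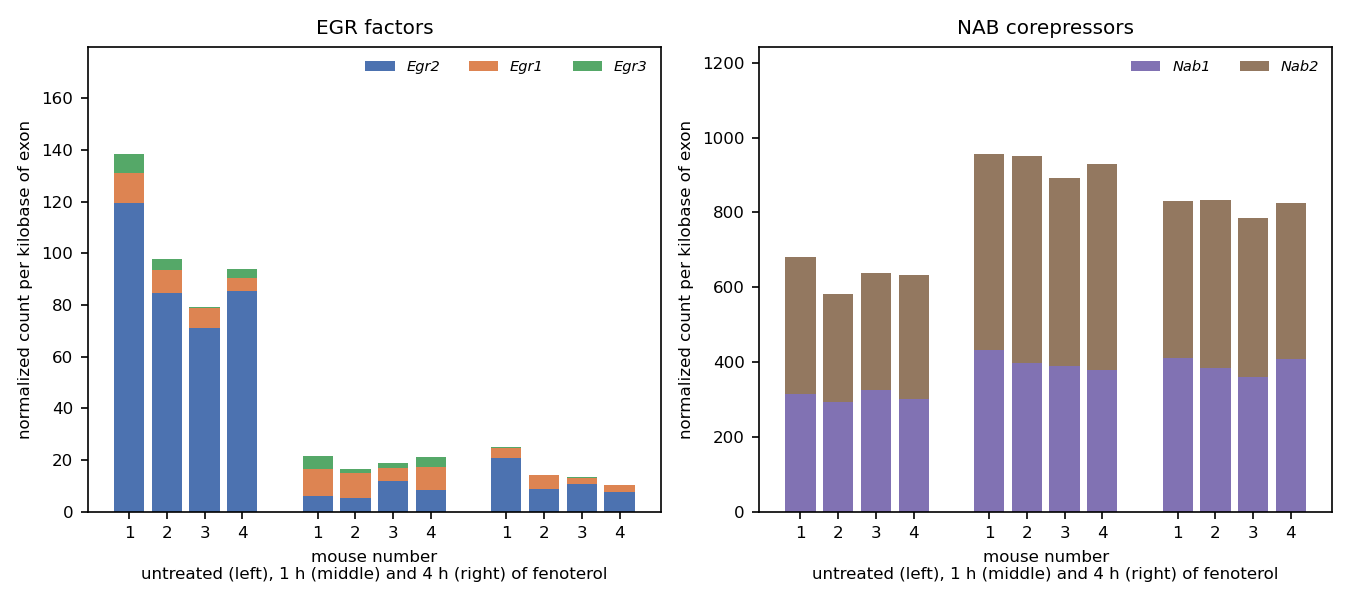
Normalized counts per kilobase of exon (vertical axes, linear from 0) of the EGR factors and of the NAB corepressors in each of the 12 libraries, stacked by gene. The EGR sum drops from 79.2 to 138 in untreated BMDMs to at most 25.1 after fenoterol, while the NAB sum is 583 to 679 untreated, 891 to 955 at 1 h and 786 to 833 at 4 h.

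*Nab2* (ENSMUSG00000025402, chr10:127660918-127668568, minus strand) encodes a corepressor that binds EGR factors and is known as an inducible one. Its normalized counts were 1076, 855, 915 and 974 in untreated BMDMs. At 1 h they were 1536, 1625, 1478 and 1623, and at 4 h 1239, 1318, 1255 and 1226. The 3 groups did not overlap. *Nab2* rose by 0.71 on the log2 scale at 1 h (SE 0.07, adjusted p = 1.46e-06), was 0.40 above untreated at 4 h (SE 0.07, adjusted p = 0.000206), and fell by 0.31 between the time points (SE 0.06, adjusted p = 0.00150), by edgeR. At 4 h, 35.6% to 60.5% of the 1 h rise remained in the 4 mice. Exons of *Nab2* overlap 3 genes on the other strand. *Gm16229*, an antisense gene, covers 35.7% of the exon bases and had 5 reads in all libraries against 15136 for *Nab2*, while *Stat6*, with 87044 reads, shares 1.36% and *Nemp1*, with 4565 reads, shares 5.13%. The libraries were made with a stranded kit, but the strand setting of the counting is not stated.

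*Nab1* (ENSMUSG00000002881, chr1:52457294-52500679, minus strand), the other NAB corepressor, changed less and more evenly. Its normalized counts were 1286, 1198, 1338 and 1233 in untreated BMDMs, 1776, 1629, 1594 and 1548 at 1 h, and 1679, 1580, 1471 and 1669 at 4 h. Every treated library was above every untreated one. The rise was 0.37 on the log2 scale at 1 h (SE 0.06, adjusted p = 0.000409) and 0.34 at 4 h (SE 0.06, adjusted p = 0.000387), by edgeR. From 1 h to 4 h the difference was -0.03, with a 95% confidence interval from -0.16 to 0.10 (adjusted p = 0.712). Its promoter window was the only one of the 7 genes with 3 matches to the EGR motif, which read GCGTGGGCG 109 bases and GCGGGGGCG 38 bases before the start on the strand of the gene, and CGCCCACGC, the motif on the other strand, 141 bases before it. The window mostly overlaps annotated exon and is not shown whole.

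On the scale of levels per kilobase, NAB transcripts exceeded EGR transcripts 4.91 to 8.04 times in untreated libraries, 44.0 to 58.0 times at 1 h and 33.2 to 79.5 times at 4 h. Both treated groups were above all untreated libraries, and they overlapped each other. *Nab2* made up 48.8% to 53.8% of the NAB sum in untreated libraries, 54.7% to 59.4% at 1 h and 50.6% to 54.3% at 4 h. These shares describe RNA and not protein.

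Among the immediate early response genes, *Ier2* and *Ier3* rose and *Ier5* fell. *Ier2* (ENSMUSG00000053560, chr8:84661331-84662852, minus strand), a gene of a single exon whose product is a nuclear regulator of transcription, had the smallest adjusted p of the 10 at 1 h. *Ier2* had normalized counts of 310, 303, 292 and 308 in untreated BMDMs. They reached 1254, 1572, 1595 and 1545 at 1 h and were 625, 687, 732 and 639 at 4 h. The groups were far apart, and mouse 1 was lower than the other 3 mice at 1 h. The log2 fold change was 2.30 at 1 h (SE 0.08, adjusted p = 3.62e-11) and 1.14 at 4 h (SE 0.08, adjusted p = 4.48e-08), and the fall between them was -1.15 (SE 0.08, adjusted p = 3.35e-08), by edgeR. In each mouse 26.8% to 33.8% of the rise at 1 h was left at 4 h.

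*Ier3* (ENSMUSG00000003541, chr17:35821684-35822923, plus strand), also known as IEX-1, encodes a regulator of cell survival that ERK phosphorylates. In untreated BMDMs it had normalized counts of 375, 450, 301 and 374, followed by 1669, 1781, 1508 and 1363 at 1 h, and 972, 1093, 911 and 646 at 4 h. None of the groups overlapped. *Ier3* rose by 2.08 on the log2 scale at 1 h (SE 0.15, adjusted p = 1.05e-07) and was 1.27 above untreated at 4 h (SE 0.15, adjusted p = 9.19e-06). It fell by 0.81 between the time points (SE 0.14, adjusted p = 0.000439, edgeR). Mouse 4 kept 27.5% of its 1 h rise at 4 h, the least of the 4 mice, and the highest share was 50.6%.

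*Ier5* (ENSMUSG00000056708, chr1:155096361-155099636, minus strand), a gene of a single exon whose product acts on heat shock factor 1 and protein phosphatase 2A, went the other way. Per kilobase of exon it was the most abundant of the 10 genes in untreated BMDMs. Its normalized counts there were 1930, 2092, 2110 and 1871. At 1 h they were 1419, 1355, 1580.2 and 1369, and at 4 h 1328, 1333, 1412 and 1369, all below the untreated range. The fall was -0.48 on the log2 scale at 1 h (SE 0.06, adjusted p = 3.04e-05) and -0.56 at 4 h (SE 0.06, adjusted p = 3.29e-06), by edgeR. The 2 time points overlapped, and the log2 difference between them was -0.07 (95% confidence interval -0.20 to 0.06, adjusted p = 0.373).

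*Maff* and *Csrnp1* rose at 1 h and were near or below the untreated level at 4 h. *Maff* (ENSMUSG00000042622, chr15:79346621-79359076, plus strand) encodes a small MAF protein, which lacks a transactivation domain and pairs with other basic leucine zipper factors. Its normalized counts were 33.8, 29.5, 31.8 and 29.1 in untreated BMDMs, 98.7, 73.2, 93.2 and 112 at 1 h, and 31.3, 15.7, 13.0 and 14.8 at 4 h. All 1 h libraries were above all others. At 4 h mouse 1 lay within the untreated range and the other 3 mice lay below it, and all 4 were below their own untreated library. *Maff* rose by 1.59 on the log2 scale at 1 h (SE 0.23, adjusted p = 0.000154) and fell by 2.35 between 1 h and 4 h (SE 0.25, adjusted p = 3.61e-06). At 4 h it was 0.75 below untreated on the log2 scale (SE 0.26, adjusted p = 0.0349, edgeR). That last call was lost when any of 6 libraries was left out, namely untreated mice 1, 2 or 3 or 4 h mice 2, 3 or 4, with adjusted p from 0.0519 to 0.101, and when only the untreated and 4 h libraries were fitted (adjusted p = 0.0641). Without 4 h mouse 1, the highest 4 h library, the log2 difference was -1.10 (adjusted p = 0.00118).

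The 250 bases before the *Maff* start at position 79347520 (chr15:79347270-79347519 of GRCm38.p6, plus strand, 1 of 3 RefSeq starts) are shown because they hold the full CRE, found for no other of the 7 genes. Capitals mark the CRE 29 bases before the start and an EGR motif 88 bases before it.
Maff promoter: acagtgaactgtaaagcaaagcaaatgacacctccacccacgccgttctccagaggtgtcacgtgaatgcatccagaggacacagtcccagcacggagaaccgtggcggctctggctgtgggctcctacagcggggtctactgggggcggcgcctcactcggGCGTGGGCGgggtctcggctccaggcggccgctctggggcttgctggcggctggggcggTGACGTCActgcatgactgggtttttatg
No exon of GENCODE overlaps this window.

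*Csrnp1* (ENSMUSG00000032515, chr9:119971163-119984658, minus strand), first known as AXUD1, encodes a cysteine and serine rich nuclear protein that activates transcription. Untreated BMDMs had normalized counts of 115, 129, 155 and 129, followed by 384, 409, 412 and 345 at 1 h, and 150, 134, 178 and 160 at 4 h. The 1 h libraries stood apart from both other groups, which overlapped each other. *Csrnp1* rose by 1.55 on the log2 scale at 1 h (SE 0.12, adjusted p = 1.49e-07) and fell by 1.32 between 1 h and 4 h (SE 0.11, adjusted p = 5.54e-07), by edgeR. At 4 h it was above untreated in all 4 mice by a log2 value of 0.24 that did not pass the test (95% confidence interval -0.02 to 0.49, adjusted p = 0.137). Only 1.77% to 14.2% of the 1 h rise was left at 4 h. *Csrnp1* shares 6.45% of its exon bases with *1700019L13Rik*, an antisense gene that had 0 reads.

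RefSeq gives 4 starts for *Csrnp1*, and each of the 4 windows holds TGACG. The window before position 119983779 (chr9:119983780-119984029 of GRCm38.p6, minus strand, written in the direction of the gene) is shown since it holds 2 matches outside exons of *Csrnp1*. Exons of overlapping genes were not checked for this window. Capitals mark them, 62 bases before the start on the other strand and 31 bases before it on the strand of the gene.
Csrnp1 promoter: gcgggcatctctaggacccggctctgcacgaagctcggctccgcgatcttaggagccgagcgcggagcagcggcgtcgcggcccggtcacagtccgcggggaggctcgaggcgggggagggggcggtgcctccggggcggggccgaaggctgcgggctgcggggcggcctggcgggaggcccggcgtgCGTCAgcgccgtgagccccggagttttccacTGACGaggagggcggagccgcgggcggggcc
The full CRE, the EGR motif and the CArG box have no match in it.

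**Figure D3:**
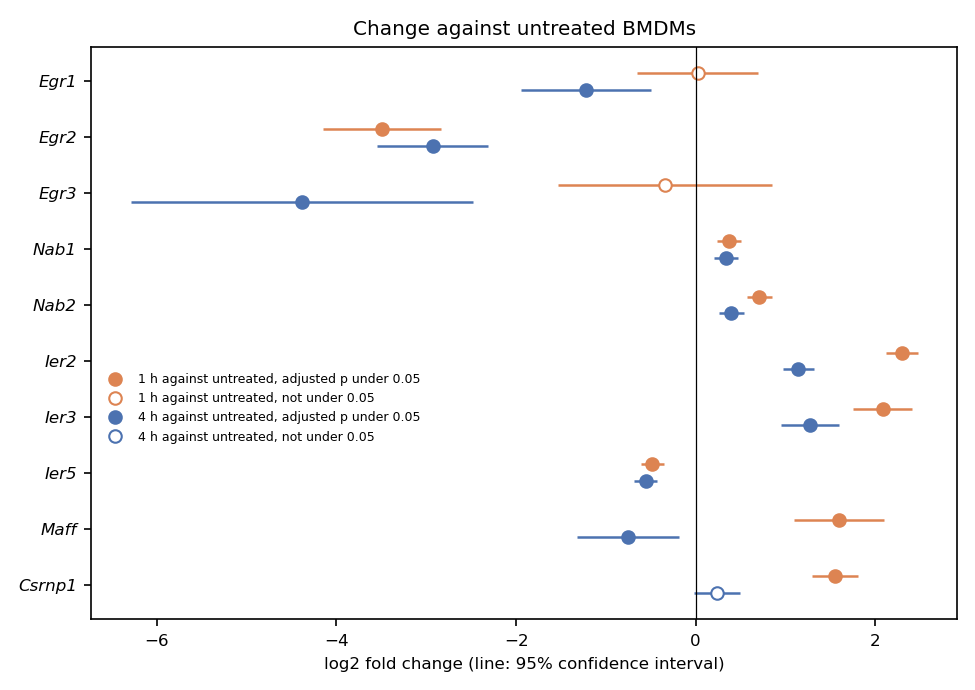
Log2 fold changes of the 10 genes against untreated BMDMs at 1 h (orange) and 4 h (blue) of fenoterol, with 95% confidence intervals as lines and filled points where edgeR gave an adjusted p under 0.05. *Egr2* lies at -3.50 and -2.93, *Ier2* and *Ier3* at 2.30 and 2.08 at 1 h, and the intervals of *Egr1* and *Egr3* cross 0 at 1 h but not at 4 h.

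The order of levels per kilobase of exon also changed. In untreated BMDMs *Ier5* was highest (611 ± 36.2 normalized counts per kilobase, SD, n = 4), then *Ier3* (332 ± 53.9), *Nab2* (325 ± 31.9) and *Nab1* (308 ± 14.9), whose ranges overlapped in that order. *Ier2* (199 ± 5.19), *Egr2* (90.2 ± 20.4) and *Csrnp1* (38.0 ± 4.84) followed, each apart from its neighbours. *Maff* (12.0 ± 0.84), *Egr1* (8.24 ± 2.97) and *Egr3* (3.86 ± 2.72) came last, with overlapping neighbours. At 1 h the top places went to *Ier3* (1397 ± 162) and *Ier2* (980 ± 105), ahead of *Nab2* (532 ± 24.3), *Ier5* (437 ± 31.5) and *Nab1* (399 ± 24.1), of which *Ier5* and *Nab1* overlapped. *Egr2* (7.91 ± 2.94) had come down to overlap *Egr1* (8.45 ± 2.35). At 4 h *Ier3* (801 ± 167) stayed first, and *Ier2* (441 ± 32.1), *Nab2* (428 ± 13.8), *Ier5* (415 ± 11.9) and *Nab1* (390 ± 23.6) formed a run in which each overlapped the next. *Egr2* (12.0 ± 6.05), *Maff* (7.20 ± 3.27) and *Egr1* (3.60 ± 1.35) formed a lower run, above *Egr3* (0.16 ± 0.11).

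Related genes were taken from 6 lists, none of which contains the 10 genes. Counts of calls are from the fit without the mouse as a block, unless stated. Of all genes tested, 10.0% were called higher and 10.1% lower at 1 h. At 4 h these shares were 19.7% and 20.4%. In the list of EGR family members and cofactors, which holds subunits of the NuRD complex that NAB proteins recruit and acetyltransferases that EGR1 binds, 8 of 10 genes were tested. At 1 h 4 fell and 0 rose (median log2 fold change -0.15, against -0.0049 over all genes), and at 4 h 2 fell and 0 rose (median 0.07). In the paired edgeR fit, with mouse as a replicate block, *Hdac1* was called higher at 4 h (log2 0.30, adjusted p = 0.00897). *Chd4* was called lower at 1 h in that fit (-0.15, adjusted p = 0.0332). *Ep300*, the acetyltransferase p300, fell by 0.52 on the log2 scale at 1 h (adjusted p = 3.12e-05), and its difference at 4 h was -0.10 (adjusted p = 0.244). *Mta1* of the NuRD complex fell by 0.27 at 1 h and by 0.30 at 4 h, and *Chd3* fell by 0.39 at 4 h (adjusted p = 3.84e-05). The remaining 1 h calls were less firm. For *Chd3* (log2 -0.18, adjusted p = 0.0258) the call was lost with no filter on low counts (0.0744), in a fit of 2 groups (0.0501) and without untreated mice 1 or 2 or 1 h mice 1, 2 or 4 (0.0522 to 0.0896). For *Mta2* (log2 -0.16, adjusted p = 0.0177) it was lost with no filter (0.115) and without 1 h mouse 3 (0.0788). *Wt1*, which encodes a factor with an EGR-like binding site, had 0 reads.

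In the ERK cascade, 16 of 18 genes were tested, of which 2 rose and 2 fell at 1 h (median 0.07) and 5 rose and 4 fell at 4 h (median -0.02). The genes that rose at 1 h both encode inhibitors of the cascade. *Spred2*, a Sprouty-related inhibitor, went from a mean of 205 normalized counts to 758 at 1 h and 579 at 4 h (log2 fold changes 1.88 and 1.49, adjusted p = 6.51e-09 and 5.02e-08). *Spry2*, an inhibitor downstream of growth factor receptors, went from 85.3 to 232 and 192 (1.44 and 1.16, adjusted p = 2.61e-07 and 1.29e-06). *Spred1* had a log2 difference of -0.09 at 1 h (adjusted p = 0.543) and fell by 1.21 at 4 h (adjusted p = 3.97e-08). *Rps6ka1*, a ribosomal S6 kinase gene, fell by 0.38 at 1 h. The 4 h count includes *Ksr1* (-0.48, adjusted p = 0.0215), whose call was lost without untreated mouse 1 (0.0667) or 4 h mouse 2 or 3 (0.0638 and 0.0526).

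Of SRF and its ternary complex and MRTF cofactors, 6 of 7 genes were tested. At 1 h 3 rose and 1 fell (median 0.16), and at 4 h 5 rose and 0 fell (median 0.57). *Srf* itself rose from 821 to 1126 and 1224 (log2 fold changes 0.46 and 0.58, adjusted p = 9.10e-05 and 3.82e-06). *Elk3*, a ternary complex factor that can repress, fell by 0.19 at 1 h (adjusted p = 0.0237) and rose by 1.27 at 4 h, from 1880 to 4536 normalized counts (adjusted p = 3.08e-10). Its small fall at 1 h was lost without any of 5 libraries, namely untreated mice 1, 2 or 4 or 1 h mice 2 or 4, with adjusted p from 0.0542 to 0.0732, and with no filter on low counts (0.0597). The rise of *Elk1* at 1 h (0.22, adjusted p = 0.0184) was lost with library size scaling (0.0883) and without untreated mouse 4 (0.0568) or 1 h mouse 2 (0.0528). *Mrtfa*, an SRF coactivator, rose by 0.73 and 0.57.

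All 9 partners of small MAF proteins and related factors were tested, with 3 higher and 2 lower at each time (medians 0.19 at 1 h and -0.05 at 4 h). Of the other small MAF genes, *Mafk* rose by 0.29 at 1 h (adjusted p = 0.00557) and fell by 0.33 from 1 h to 4 h (adjusted p = 0.000976), the directions seen for *Maff*. *Mafg* fell by 0.48 at 1 h (adjusted p = 0.000268) and rose by 0.41 from 1 h to 4 h (adjusted p = 0.000567). At 4 h their differences from untreated were -0.05 and -0.07 (adjusted p = 0.625 and 0.480). *Bach1*, a repressor that pairs with small MAF proteins, rose by 0.35 at 1 h and fell by 0.36 at 4 h. *Nfe2*, another partner, went from 11.4 to 22.1 at 1 h (log2 0.90, adjusted p = 0.131) and rose to 45.9 at 4 h (1.93, adjusted p = 0.000627).

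Relatives and partners of the IER and CSRNP genes were tested for 13 of 14 genes, of which 4 rose at 1 h and 5 rose at 4 h, with 0 lower at either time (medians 0.07 and 0.18). In the paired edgeR fit, *Atpif1* was called lower at 4 h (log2 -0.14, adjusted p = 0.0241). *Hspa8* was called higher there (0.21, adjusted p = 0.00692). *Ier5l*, the closest relative of *Ier5*, rose by 0.98 at 1 h (adjusted p = 0.00160), opposite to *Ier5*, and was at 0.26 at 4 h (adjusted p = 0.311). The heat shock gene *Hsph1* had a log2 difference of 0.18 at 1 h (adjusted p = 0.201) and rose by 1.05 at 4 h, from 471 to 975 normalized counts (adjusted p = 2.42e-07). *Hspa1a* (1.32 at 1 h and 2.08 at 4 h, adjusted p = 0.0239 and 0.000282) and *Hspa1b* (0.13 and 1.04, adjusted p = 0.887 and 0.0451) are near-identical copies with at most 31 reads in a library, so their split is uncertain. Without 1 h mouse 2, or without untreated mice 1, 2 or 3, the *Hspa1a* call at 1 h was lost (adjusted p 0.0522 to 0.0862). The *Hspa1b* call at 4 h was lost under DESeq2 (adjusted p = 0.0574), limma-voom (0.0702), limma-trend (0.0576), no filter on low counts (0.0699) and a fit of 2 groups (0.0615), and without any of 8 libraries (0.0530 to 0.165), namely all but untreated mouse 1, 1 h mouse 2 and 4 h mice 2 and 4. *Hsf1*, heat shock factor 1, was at -0.01 at 1 h (adjusted p = 0.972) and at 0.17 at 4 h (adjusted p = 0.0443), a call that was lost under DESeq2 (0.0604), limma-voom (0.0558), limma-trend (0.0527), no filter on low counts (0.112) and a fit of 2 groups (0.0647), and without any untreated mouse, 4 h mice 1, 2 or 3 or 1 h mouse 3 (0.0503 to 0.142). The 1 h count includes *Dnajb1*, whose call was lost with library size scaling (0.0597) and without untreated mouse 2 or 4 (0.0604 and 0.0618). *Csrnp2* passed at neither time, and *Csrnp3* had 0 reads.

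Genes described as EGR1 targets in other cells were tested for 10 of 12, of which 3 rose and 2 fell at 1 h (median 0.09) and 3 rose and 4 fell at 4 h (median -0.12). *Vegfa*, the angiogenic growth factor, rose from 894 to 12586 normalized counts at 1 h and was at 7336 at 4 h (log2 fold changes 3.82 and 3.04, adjusted p = 1.71e-09 and 1.05e-08), while *Egr1* did not pass the test at 1 h. *Pdgfb*, a growth factor subunit, fell from 1318 to 452 and 376 (-1.54 and -1.80, adjusted p = 1.03e-06 and 1.04e-07). *Tnf*, which encodes the inflammatory cytokine, had a log2 difference of -0.38 at 1 h (adjusted p = 0.0862, and 0.0174 in the paired fit with mouse as a replicate block) and fell by 1.02 at 4 h (adjusted p = 6.00e-05). *Icam1* fell by 0.71 and 0.81, and *Cd44* rose by 0.61 and 0.82. *Spp1* had a log2 difference of 0.24 at 1 h (adjusted p = 0.544, edgeR). It was called in the paired fit (0.23, adjusted p = 0.00134). The counts include *Tgfb1* at 1 h (0.22, adjusted p = 0.0482) and *Pdgfa* at 4 h (-0.48, adjusted p = 0.0444). *Tgfb1* lost its call in all but 3 of the 12 fits that left out 1 library (untreated mouse 4, 1 h mouse 1 and 4 h mouse 3), with adjusted p from 0.0505 to 0.144, and *Pdgfa* in all but 4 (untreated mouse 2, 1 h mice 1 and 2 and 4 h mouse 1), with 0.0505 to 0.147. Library size scaling and a fit of 2 groups also ended both calls (0.180 and 0.0575 for *Tgfb1*, 0.0541 and 0.0507 for *Pdgfa*), as did no filter on low counts for *Pdgfa* (0.0678).

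**Figure D4:**
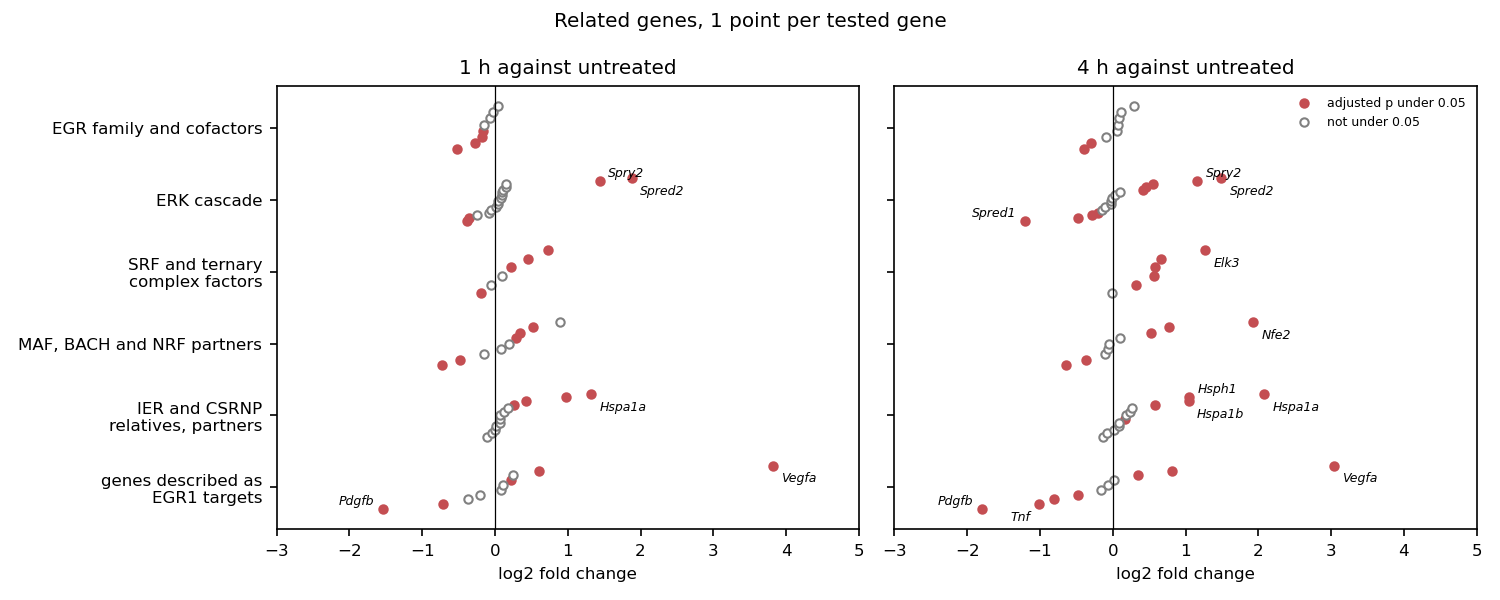
Log2 fold changes (horizontal axes) of the tested genes in 6 lists of related genes at 1 h (left) and 4 h (right) of fenoterol against untreated BMDMs, with 1 point per gene, filled red where the adjusted p was under 0.05. Genes with at least 2-fold differences are named. *Vegfa* lies at 3.82 and 3.04, and *Spred2* and *Spry2* lie between 1.16 and 1.88 at both times.

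For each of the 10 genes, the gene with the most similar pattern over the 12 libraries was sought among 10283 genes (mean of 50 or more normalized counts), by Pearson's r of log2 CPM, as a description. The 12 libraries include 4 from each condition and share each mouse, so a gene with a like response has a high r. *Ier2* and *Nab2* were both most like *Cbarp* (r = 0.99 and 0.98), which went from a mean of 34.3 to 730 at 1 h and 160 at 4 h. *Csrnp1* was most like *Cd83* (r = 0.99), a surface molecule of activated myeloid cells, with 1474, 9507 and 2234. *Ier3* was most like *Pde4b* (r = 0.99), a cAMP phosphodiesterase, with 625, 6528 and 2620. *Egr2* was most like *Plekho1* (r = 0.98), with 6168, 3959 and 4256. *Ier5* was most like *Akap10* (r = 0.97), a kinase A anchor, with 2017, 899 and 849. *Nab1* was most like *Hspa9* (r = 0.98), *Maff* like *Timp2* (r = 0.97), *Egr3* like *Plxdc1* (r = 0.95) and *Egr1* like *Prkcd* (r = 0.92). A high r did not mean a change of like size, since *Plekho1* fell by 0.64 on the log2 scale at 1 h where *Egr2* fell by 3.50.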

How the data were processed

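RNA of BMDMs from 4 mice was measured in 12 libraries, 4 for each of 3 groups, and samples were grouped by GEO's labels. TruSeq stranded mRNA libraries were sequenced as single-end reads of 50 bases, which the authors aligned to GRCm38 with TopHat2 2.0.11 and counted them per gene with HTSeq 0.8.0. The deposited values are raw counts, not normalized, and no column was left out. The annotation release and strand setting are not given in the sources used here. Symbols, exons and overlaps came from GENCODE M21 (53274 of 53379 genes matched), and promoter sequences from RefSeq on GRCm38.p6.

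Counts were filtered with filterByExpr and scaled by TMM, and edgeR 4.0.16 (R 4.3.3) was run as 1 quasi-likelihood fit over 12 libraries with a mean per group. The filter left 12386 genes, and the two-sided p-values were adjusted over them (Benjamini-Hochberg, threshold 0.05). The script was tested on simulated counts. The common biological coefficient of variation was 0.1115, and between replicates chi-square per degree of freedom was 9.13 to 18.7, above counting error. Confidence intervals cover 95%, and the interval of a count ratio covers counting error only. The paper tested values normalized by vsn with limma, whereas a count test was used here.

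The labels tie libraries of 1 number to 1 mouse. Deviations from the group means had Pearson's r of 0.291 to 0.561 within a mouse (12 pairs) and -0.300 to 0.0849 between mice (36 pairs).

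The members and lists were chosen with earlier results of these data known. Genes named are all 10 members, genes of the lists past the threshold with at least 2-fold change at 1 h or 4 h, *Srf*, *Mafg*, *Mafk* and *Egr4*, the most similar gene of each member, and genes whose exons overlap a member. Other genes of the lists were named after their values were seen. Single values of some genes of the lists are not reported here. The alternatives were DESeq2 1.42.0, limma-voom and limma-trend (limma 3.58.1), RLE and library size scaling, 2 other filters on low counts, the mouse as a replicate block, fits restricted to the 2 groups of a contrast, a threshold of 0.01 and each library left out. Figures were drawn with matplotlib 3.10.9.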

Additional observations from a re-analysis of the deposited data

Results flagged for a closer look

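At 1 h of fenoterol, *Ier2* in mouse 1 (1254 normalized counts from 1220 reads) stood apart from the other 3 mice (1545 to 1595) by Dixon's test for a single distant value, and still lay above every untreated library. At 4 h, *Maff* in mouse 1 (31.3 normalized counts from 30 reads) stood apart from the other 3 mice (13.0 to 15.7) and lay within the untreated range. These were 2 of 30 groups of 4 libraries, where chance gives about 1.5.

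For 7 genes the effect of fenoterol differed between 1 h and 4 h, by edgeR's test of that difference. On the log2 scale the 4 h effect minus the 1 h effect was -4.04 for *Egr3* (adjusted p = 0.00299), -2.35 for *Maff* (adjusted p = 3.61e-06), -1.32 for *Csrnp1* (adjusted p = 5.54e-07), -1.24 for *Egr1* (adjusted p = 0.00959), -1.15 for *Ier2* (adjusted p = 3.35e-08), -0.81 for *Ier3* (adjusted p = 0.000439) and -0.31 for *Nab2* (adjusted p = 0.00150), with lower values at 4 h in 4 of 4 mice for each.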

How the results depend on the processing

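With 1 library left out, 346 fold changes of the 10 genes kept their direction and their side of the threshold, 8 changed sign and 6 lost their call. Under the other settings 282 kept both, 4 changed sign and 3 lost their call. *Egr1* at 1 h, which was not called, was -0.045 with library size scaling, and ranged from -0.16 to 0.28 with 1 library left out. *Egr3* at 1 h was 0.0082 under limma-voom and ranged from -0.72 to 0.18 with 1 library left out (0.18 without untreated mouse 1). From 1 h to 4 h with library size scaling, *Ier5* was 0.019 and *Nab1* 0.060, and *Nab1* ranged from -0.062 to 0.0087 with 1 library left out. None of these differences was called. *Maff* at 4 h lost its call without any of 6 libraries (-0.77 to -0.61) and with only the 2 groups fitted (-0.75), and was -1.10 without 4 h mouse 1 (adjusted p = 0.00118). At a threshold of 0.01, *Maff* (adjusted p = 0.0349) and *Egr1* (adjusted p = 0.010) at 4 h were not called, and 1580 of all genes were called at 1 h in place of 2493. With a mean count of at least 50, *Egr1*, *Egr3* and *Maff* were left out of the fit, and 4 of the other 7 genes were called from 1 h to 4 h, in place of 7 of 10. *Egr3* was also filtered out where 4 h was fitted with only 1 other group. In the paired fit, with the mouse as a replicate block, the 10 genes had 8, 9 and 7 calls at 1 h, 4 h and between them, as without it, and *Egr2* at 1 h was -3.48. The block raised the calls over all genes to 3348, 5870 and 5775, and those among the related genes from 26, 33 and 30 to 30, 37 and 38. Depth limits *Egr1*, *Egr3* and *Maff*, which had 0 to 109 reads a library.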
